A study of Mus musculus with 6 samples.

Results

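Solute carriers are the largest group of membrane transporters in mammals. These genes, whose symbols start with Slc and a family number, were followed in lungs of C57 mice given a sensitization and then a challenge with ovalbumin, the egg protein used to produce allergic inflammation of the airways. Each of 6 such mice was set on a two-colour array against the same pool of amplified lung RNA from control C57 mice, and the amplified RNA of the ovalbumin mouse filled the other channel. The labels give no age, sex, dose or schedule, and no further treatment or allele. The platform annotation names 256 Slc genes on 276 probes. Of these, 4 were left out by name. Of the 252 others, 188 had a value on at least 4 of the 6 arrays and are described here with 1 probe each, that measured on most arrays. Where probes tied, the first by probe number was taken. Of the 188 genes, 144 were measured on all 6 arrays, 30 on 5 and 14 on 4. A further 39 had values on 1 to 3 arrays and 25 on none, and these 64 were not analysed. They stand among 9774 genes measured on at least 4 arrays in the whole table of 17280 probes.

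Each family of solute carriers moves a kind of small molecule across a membrane, mostly by coupling it to a gradient of sodium or protons or by exchanging it for another molecule. In the plasma membrane they bring in sugars, amino acids, metals and vitamins and adjust chloride, bicarbonate and pH. In the Golgi and endoplasmic reticulum the Slc35 family carries the nucleotide sugars used to glycosylate secreted proteins such as mucins, and in the inner membrane of mitochondria the Slc25 family carries metabolites, nucleotides and phosphate. In lung, such carriers are known from surfactant-producing cells, airway epithelium, endothelium and macrophages.

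The values are the log ratios deposited for each array, read as log2, with each array centred on its median. The sources used here give neither the base of the logarithm nor the direction of the ratio nor the dyes, so signs are those of the deposited ratio, neither sign is assigned to the ovalbumin mice, and a size is given as a fold apart from the pool. A natural logarithm would make each fold larger. The arrays measured between 10922 and 13132 probes. The SD of the log ratio over probes was 0.21 in mouse 3 and between 0.32 and 0.47 in the other mice, so mouse 3 stood apart. In whole lung, fewer cells of a type and less RNA per cell cannot be told apart. A ratio gives no level, so the tissue label could not be checked. Of 14 alveolar epithelial marker genes listed, 11 were on the array and all 11 had values on at least 4 arrays (4 called, 3 negative and 1 positive). Heart muscle genes were measured about as widely (21 of the 23 on the array), so having values does not tell the tissue. A gene is called when the limma test of its mean against 0 has a Benjamini-Hochberg adjusted p below 0.05 over 11629 probes. All arrays share 1 pool, so variation among control mice does not enter the test. The labels do not say how the mice were housed or processed, so p-values measure only the spread between these 6 samples.

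Of the 188 solute carrier genes, 49 were called, 22 of them negative in the mean and 27 positive. This is 26.1%, against 24.4% of all 11629 probes tested (12.3% negative and 12% positive). Of all 9774 genes taken with 1 probe each, 25.4% were called, so the share was close to the background. Counts of calls in the classes and marker lists below, with all mice, stand beside these shares. The changes were small, as over all probes: the median distance of the mean from 0 was 0.12, against 0.11 over all probes. Of the 188 genes, 9 were called and at least 1.5-fold apart (background 4.88%). At least 2-fold apart were 0 of 188, against 174 of all probes (1.5%). At an unadjusted p below 0.05 there were 75 genes. The median of the 188 means was 0.03 and their range was -0.78 to 0.95. Among the 144 genes measured on all arrays, 16 were negative and 23 positive in every mouse, 27.1% in all, where all probes gave 30.2%. Leaving out mouse 2 left 23 calls, mouse 4 left 24 and mouse 6 left 32, and the same omissions lowered the share of all probes called to 11.8%, 11.5% and 14.8%. Without mouse 3 there were 52 calls, against 25.9% of all probes, and 42 of the 52 were also calls with all mice. In all, 20 of the 49 calls held whichever mouse was left out. For this count and for the 75 genes no share of all probes was taken, so neither is read against a background.

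**Figure D1:**
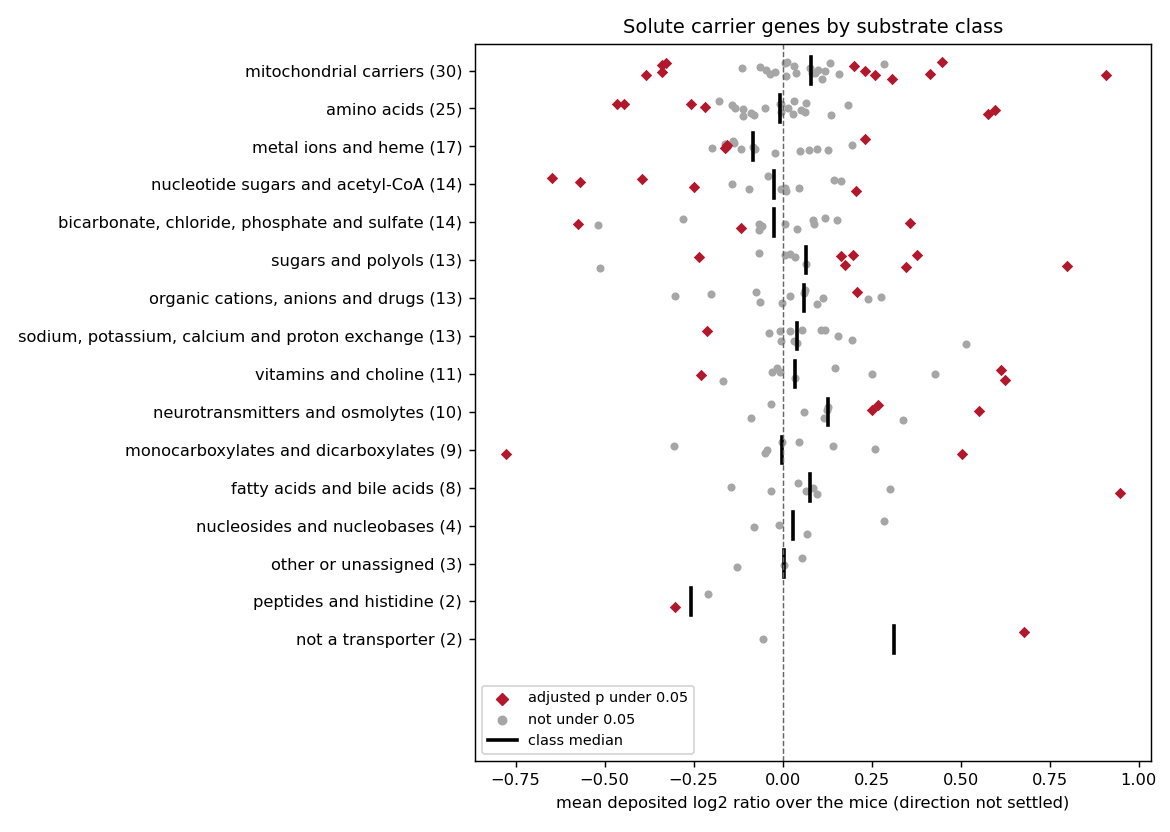
Mean deposited log2 ratio (x axis) of each of the 188 solute carrier genes, in rows by substrate class with the number of genes in parentheses; red diamonds are called genes, grey circles the others, and the black bar is the class median. Class medians of at least 4 genes lie between -0.08 and 0.13, while called genes reach from -0.78 to 0.95 on both sides.

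The classes differed in how many genes were called and on which side, although classes are described here without a test. Carriers of sugars and polyols had 7 calls among 13 genes (53.8%), 6 of them positive. Mitochondrial carriers had 11 among 30 (36.7%), with 7 positive and 4 negative, and carriers of nucleotide sugars and acetyl-CoA 5 among 14 (35.7%), of which 4 were negative. These counts fell when some mice were left out, as did the share of all probes called. That share was 24.4% with all mice, 11.8% without mouse 2 and 11.5% without mouse 4. It was 17.5% without mouse 5 and 14.8% without mouse 6. The positive calls among sugar carriers were 2 without mouse 2 and 2 without mouse 4. Positive calls among mitochondrial carriers were 4 without mouse 2, 5 or 6, and negative ones 2 without mouse 2, 4 or 6. For the nucleotide sugar class, negative calls were between 3 and 5 whichever mouse was left out, and its positive call, Slc35a4, was kept only without mouse 2. At the other end, carriers of organic cations, anions and drugs had 1 among 13, exchangers of sodium, potassium, calcium and protons 1 among 13, and carriers of nucleosides and nucleobases 0 among 4, where limma's unadjusted p was below 0.05 for 1 gene, Slc43a3 (0.0428). Class medians of at least 4 genes ran from -0.08 for metal ions and heme to 0.13 for neurotransmitters and osmolytes.

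**Figure D2:**
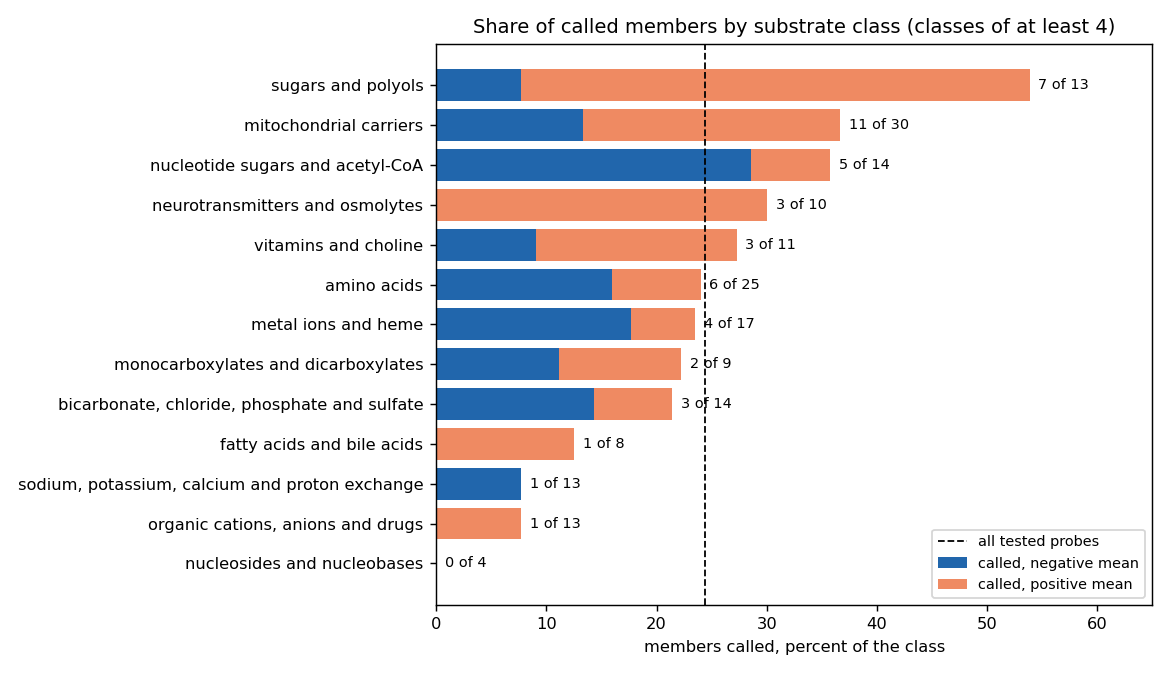
Share of called genes in each substrate class of at least 4 genes (x axis, percent), split into negative (blue) and positive (orange) means, with the count beside each bar; the dashed line is the share of all tested probes, 24.4%. Sugar carriers lie highest, with 7 of 13 called and 6 of these positive.

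Slc27a1, which takes up long-chain fatty acids in muscle and fat, had the highest mean of the 188 genes, with log2 ratios of 1.34, 0.65, 0.97, 1.27, 0.34 and 1.11 in mice 1 to 6. All mice lay above 0, with mouse 5 lowest. The mean of 0.95 ± 0.38 (SD, n = 6) was 1.93-fold apart from the pool (limma, adjusted p = 0.00552). Slc2a4, the insulin-responsive glucose transporter of those tissues, was at 1.03, 0.96, 0.49, 0.66, 0.67 and 0.99. It was positive in every mouse and had a narrow spread, 0.80 ± 0.22 (1.74-fold, adjusted p = 0.00286). Both calls held whichever mouse was left out. Slc27a1 was the only call among the 8 carriers of fatty acids and bile acids, which included Slc27a4 at 0.10, Slc27a2 at 0.09 and Slc27a5 at -0.03.

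Other sugar carriers lay closer to 0. Slc50a1, a sugar exporter of the Golgi and plasma membrane, was at 0.38 ± 0.24 (adjusted p = 0.0196) and the intracellular glucose transporter Slc2a8 at 0.35 ± 0.24 (adjusted p = 0.0261). Slc50a1 lost its call without mouse 2 (adjusted p = 0.0528) or mouse 5 (adjusted p = 0.0546), and Slc2a8 without mouse 1 (0.0595), mouse 4 (0.0619) or mouse 6 (0.068). The microsomal glucose 6-phosphate carrier Slc37a4 at 0.20, the fructose carrier Slc2a5 at 0.18 and the widespread glucose transporter Slc2a1 at 0.16 were also called, while Slc2a3 at 0.07 was not (adjusted p = 0.324). The call of Slc2a1 (adjusted p = 0.0441) held without mouse 1 alone and was lost without any other mouse, at adjusted p between 0.0703 and 0.124, and those of Slc37a4 and Slc2a5 were lost without mouse 2 or mouse 4, at 0.0587 to 0.0731. On the negative side were Slc2a10, a facilitative glucose transporter, at -0.23 ± 0.08 (adjusted p = 0.0101, held without each mouse), and as a value Slc37a2, a sugar phosphate carrier of macrophages, at -0.51 ± 0.47 (adjusted p = 0.0545). Slc37a2 was at -0.91, -1.21, 0.10, -0.41, -0.32 and -0.33 in mice 1 to 6, with mouse 3 alone above 0, and it passed without that mouse (-0.63, adjusted p = 0.0217).

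Carriers of monocarboxylates and dicarboxylates had 2 calls among 9 (22.2%, near the 24.4% of all probes), 1 on each side. Slc13a2, which takes up dicarboxylates with sodium, had the lowest mean of all the solute carriers, with -1.43, -1.16, 0.05, -1.02 and -0.34 in mice 1, 2, 3, 4 and 6 and no value in mouse 5. Mice 1, 2 and 4 were low and mouse 3 was at 0. The mean of -0.78 ± 0.61 (SD, n = 5) was 1.72-fold apart (adjusted p = 0.0464), at -0.98 without mouse 3 (adjusted p = 0.0131), and the call was lost without any other mouse (adjusted p between 0.0571 and 0.139). Kidney tubule genes, from a tissue where Slc13a2 is known, had 3 calls among 6, all negative (median -0.21), and their part in it was not tested. Slc16a9 was at 1.05, 0.82, 0.42, 0.54, 0.26 and -0.07, 0.50 ± 0.40 (adjusted p = 0.035), and lost its call without any mouse but mouse 6 (0.053 to 0.105). The lactate carriers gave no call, Slc16a1 at -0.05 in 4 mice (adjusted p = 0.502) and Slc16a3 at -0.04 ± 0.59 (adjusted p = 0.888; positive, at 0.003 to 0.04, with quantile normalization, equal scale or array weights). Slc16a3 ran from -1.07 in mouse 1 to 0.49 in mouse 6, with mice 1 and 2 negative and the other mice positive.

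Mitochondrial carriers included strong positive values for the exporters of citrate and dicarboxylates. Slc25a1, the citrate carrier that feeds fatty acid synthesis in the cytosol, was at 1.05, 0.86, 1.33, 1.05, 0.57 and 0.60 in mice 1 to 6. Mouse 3 was highest and mice 5 and 6 were lowest. Its mean was 0.91 ± 0.29 (1.88-fold, adjusted p = 0.0035, n = 6). Slc25a10, the dicarboxylate carrier, was at 0.52, 0.44, 0.55, 0.46, 0.21 and 0.52, 0.45 ± 0.12 (adjusted p = 0.0035). Slc25a4, the ADP/ATP carrier of heart and skeletal muscle, was at 0.65, 0.65, 0.08, 0.36, 0.46 and 0.28, 0.41 ± 0.22 (adjusted p = 0.0124), and the iron carrier Slc25a28 was at 0.31 ± 0.10 in 5 mice (adjusted p = 0.00972). These 4 calls held whichever mouse was left out. Slc25a30 at 0.26, Slc25a26, which imports S-adenosylmethionine, at 0.23, and Slc25a14 at 0.20 were called too, but each lost its call without mouse 2 (adjusted p = 0.104, 0.101 and 0.112) and without at least 3 of the other mice.

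Of the calcium-regulated ATP-magnesium carriers, Slc25a25 and Slc25a24 lay on the opposite side. Slc25a25 was at -0.46, -0.17, -0.32, -0.64, -0.36 and -0.37, negative in every mouse with a mean of -0.38 ± 0.16 (adjusted p = 0.00728), and Slc25a24 was at -0.33 ± 0.17 (adjusted p = 0.0141); both calls held without each mouse. A second probe of Slc25a24 was at -0.14 ± 0.12 in 5 mice, without a call (limma, adjusted p = 0.114). A further member of this subfamily, Slc25a23, was at 0.01 in 4 mice (adjusted p = 0.949). Slc25a32, a folate and flavin carrier, and the glutamate carrier Slc25a22 were both at -0.34 (adjusted p = 0.0249 and 0.0223), with calls lost without mouse 2, 4 or 6 and also without mouse 5 or mouse 1. Slc25a20, which carries acylcarnitines into the matrix, was at -0.02 ± 0.13 and the phosphate carrier Slc25a3 at 0.08 ± 0.31, without a call.

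Markers of fat and heart muscle lay on the same side as Slc27a1, Slc2a4 and Slc25a4, genes that those tissues also use. Of 12 adipocyte genes tested 6 were called, all positive (median 0.42, with medians in single mice from 0.16 to 0.88), and of 21 heart muscle genes 12 were called, all positive (median 0.64, from 0.03 to 1.52). The adipocyte hormone Adipoq was at 2.30 and the atrial myosin light chain Myl4 at 1.60. Mouse 3 had the lowest median of both lists, and it also had the lowest value of Slc2a4 and Slc25a4 but the highest of Slc25a1. Slc27a1 was at 0.971 in mouse 3 and lowest in mouse 5, at 0.345. Over all probes mouse 3 had the smallest SD of the log ratio (0.21). The adipocyte genes were spread widely in mouse 3, from -0.35 for Car3 to 1.71 for Cidea. Adipoq was at 0.42 in that mouse, Ucp1 at 0.85 and Scd1 at 1.27. Markers of club cells, secretory cells of the airway, lay on the positive side too. They had 8 calls among 13, all positive (median 1.14, from 0.08 in mouse 3 to 1.88 in single mice). The part of these tissues and cells in the ratios of the solute carriers was not tested.

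**Figure D3:**
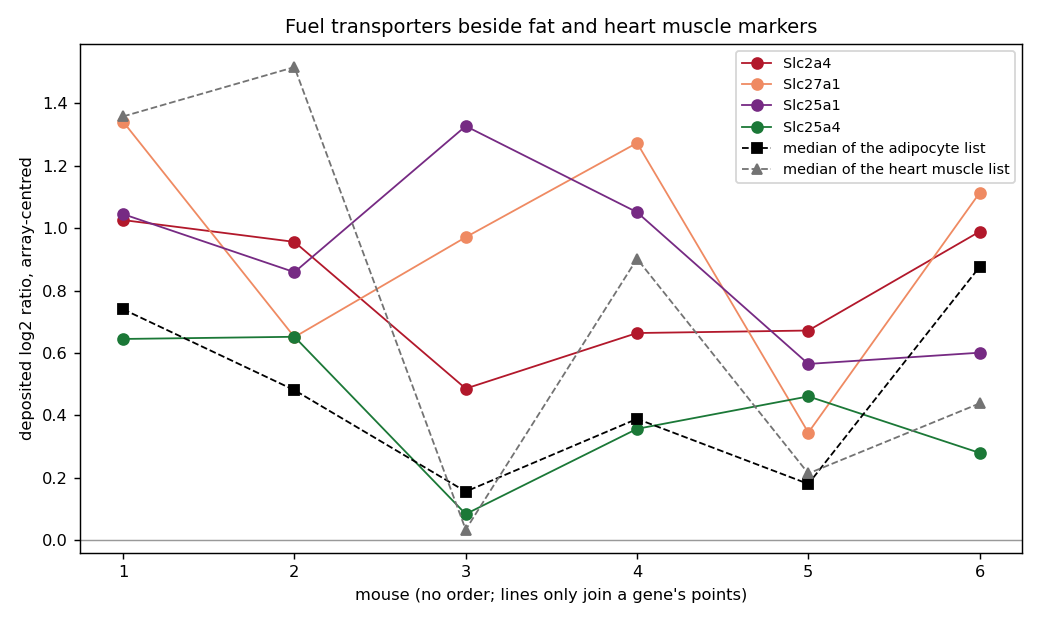
Deposited log2 ratio, array-centred (y axis), of Slc2a4, Slc27a1, Slc25a1 and Slc25a4 in mice 1 to 6 (x axis, in no order) beside the medians of the adipocyte and heart muscle marker lists (dashed). In mouse 3 the list medians are 0.16 (adipocyte) and 0.03 (heart muscle), Slc25a1 is at 1.33 and Slc27a1 at 0.97. Single adipocyte genes in that mouse run from -0.35 (Car3) to 1.71 (Cidea).

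Among the 14 carriers of nucleotide sugars and acetyl-CoA, which supply the Golgi and endoplasmic reticulum, 4 of the 5 calls were negative. The class median was -0.02. Slc35a1, which brings CMP-sialic acid into the Golgi, was at -0.97, -0.85, 0.06, -0.73, -0.65 and -0.75 in mice 1 to 6. Mice 1, 2, 4, 5 and 6 lay together and mouse 3 apart, near 0. The mean of -0.65 ± 0.36 (SD, n = 6) was 1.57-fold apart (adjusted p = 0.0124), and without mouse 3 it was -0.79 (adjusted p = 0.000741). Slc35b1, which exchanges ATP into the endoplasmic reticulum, was at -0.20, -0.93, -0.34, -0.41, -0.69 and -0.85, with mouse 1 nearest to 0 and a mean of -0.57 ± 0.29 (1.48-fold, adjusted p = 0.0105). Slc35a3, the Golgi carrier of UDP-N-acetylglucosamine, was negative in every mouse, at -0.27, -0.36, -0.37, -0.53, -0.34 and -0.51, with a mean of -0.40 ± 0.10 (adjusted p = 0.0035). The calls of Slc35a1, Slc35b1 and Slc35a3 held whichever mouse was left out. Slc33a1, which moves acetyl-CoA into the endoplasmic reticulum, was at -0.25 ± 0.15 (adjusted p = 0.0223) and lost its call without mouse 2 (0.065), mouse 4 (0.0731) or mouse 6 (0.0507). The exception in sign was Slc35a4 at 0.20 ± 0.16 (adjusted p = 0.0464), which kept its call only where mouse 2 was left out; the others gave 0.0601 to 0.124. The UDP-galactose carrier Slc35a2 at -0.01 and the sulfate donor carrier Slc35b2 at -0.04 had no call, so the negative side was not shared by the whole family.

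The 250 bases before the start of Slc35a1, Slc35b1, Slc35a3 and Slc33a1 are shown since these called genes of the secretory pathway lay on the same side, and those of Slc25a1 as a strongly positive gene for comparison. The sequences are RefSeq's on GRCm38.p6, read along the gene, with capitals marking each match to CCAAT or to CCACG or to CACGTG on either strand. Slc35a1 is at chr4:34687439-34687688 on the minus strand, Slc35b1 at chr11:95384606-95384855 on the plus strand, Slc35a3 at chr3:116712281-116712530, Slc33a1 at chr3:63964734-63964983 and Slc25a1 at chr16:17928220-17928469, these last on the minus strand.
Slc35a1: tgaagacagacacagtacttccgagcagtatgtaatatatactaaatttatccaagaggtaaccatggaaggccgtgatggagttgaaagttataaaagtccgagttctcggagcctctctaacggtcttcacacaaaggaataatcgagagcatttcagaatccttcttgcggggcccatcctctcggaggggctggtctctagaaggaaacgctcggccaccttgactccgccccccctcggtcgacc
Slc35b1: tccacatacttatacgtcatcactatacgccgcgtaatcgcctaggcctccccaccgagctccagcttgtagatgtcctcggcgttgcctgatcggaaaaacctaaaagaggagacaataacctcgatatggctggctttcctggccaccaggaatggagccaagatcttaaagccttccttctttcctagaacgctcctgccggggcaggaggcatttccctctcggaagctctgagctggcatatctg
Slc35a3: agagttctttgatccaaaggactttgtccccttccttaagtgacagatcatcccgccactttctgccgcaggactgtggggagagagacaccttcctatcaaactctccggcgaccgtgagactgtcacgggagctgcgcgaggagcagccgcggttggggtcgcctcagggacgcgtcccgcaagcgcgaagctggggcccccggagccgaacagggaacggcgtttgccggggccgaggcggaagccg
Slc33a1: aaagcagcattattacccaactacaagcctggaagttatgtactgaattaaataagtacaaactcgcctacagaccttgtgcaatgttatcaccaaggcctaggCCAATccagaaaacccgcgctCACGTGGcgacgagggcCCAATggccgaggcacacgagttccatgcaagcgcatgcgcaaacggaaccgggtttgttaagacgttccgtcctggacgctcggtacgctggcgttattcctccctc
Slc25a1: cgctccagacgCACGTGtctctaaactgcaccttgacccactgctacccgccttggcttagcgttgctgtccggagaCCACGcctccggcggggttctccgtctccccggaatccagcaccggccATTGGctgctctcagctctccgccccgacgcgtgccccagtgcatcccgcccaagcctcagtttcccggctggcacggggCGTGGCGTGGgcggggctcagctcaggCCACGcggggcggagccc
In these windows Slc35a1, Slc35b1 and Slc35a3 held none of the 3 words. Slc33a1 held CCAAT at -146 and -108 from the start, and CACGTG at -125, overlapping a CCACG read on the other strand. Slc25a1 held CACGTG at -239, a CCAAT on the other strand at -125, and CCACG on either strand at 4 places. The window of Slc27a1, also examined, held CCAAT at -188. Promoters were listed for 145 of the 188 genes. CACGTG was in 11% of these and in 6.05% of 27025 promoters of all kinds, CCACG in 39.3% and 28.2%, and CCAAT in 30.3% and 34.5%. Among the called genes with a promoter, CCACG was in 4 of 19 negative and 9 of 21 positive ones. Further words searched on both strands were GGGCGG (53.1% of the 145 and 32.9% of all), TGACG (20.7% and 17.9%), AGATAA (9.66% and 10.3%), TCACNCCAC (2.07% and 1.04%) and the full endoplasmic reticulum stress element, which joins CCAAT and CCACG across a fixed gap and was in 0 of the 145 and 33 of all 27025. These are matches of letters, not binding sites.

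Carriers of amino acids were called on both sides, 4 negative and 2 positive among 25 (24%), and the 2 positive ones had the larger means. The negative calls were 2 without mouse 1, 5 or 6, 1 without mouse 4 and 0 without mouse 2 (limma), while at least 2 positive calls were made whichever mouse was left out. Slc1a5, a sodium-coupled carrier of glutamine and other neutral amino acids, was at 0.50, 0.92, 0.29, 0.65, 0.47 and 0.76, 0.60 ± 0.22 (1.51-fold, adjusted p = 0.00551, n = 6). Slc6a9, a glycine carrier, was at 0.84, 0.63, 0.18, 0.78, 0.47 and 0.56, 0.58 ± 0.24 (1.49-fold, adjusted p = 0.0062). Every mouse was positive in both genes, with mouse 3 lowest, and both calls held without each mouse.

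On the negative side, Slc1a1, a carrier of glutamate and aspartate, was at -0.58, -0.70, -0.01, -0.64, -0.24 and -0.63, -0.46 ± 0.28 (adjusted p = 0.0159), so the same family held a called gene of either sign. Slc6a14, a carrier of neutral and basic amino acids known from airway epithelium, was at -0.53, -0.54, -0.00, -0.34, -0.48 and -0.79, -0.45 ± 0.26 (adjusted p = 0.0153). Markers of club cells lay on the positive side, and the part of airway cells in the value of Slc6a14 was not tested. In both Slc1a1 and Slc6a14 mouse 3 lay at 0 and the other mice below it. Slc1a1 lost its call without mouse 2 (0.0542) or mouse 4 (0.0558), and Slc6a14 without mouse 2 (0.0535). The glutamate carrier Slc1a2 at -0.26 in 5 mice (adjusted p = 0.0426) lost its call whichever mouse was left out, and Slc7a8 at -0.22 (adjusted p = 0.0479) kept it only without mouse 3. The probe of Slc7a8 lies 6 numbers from a probe with a mean of -1.22.

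The heavy chain Slc3a2 and its light chains did not lie on a common side. Slc3a2, which brings several light chains to the cell surface, was at 0.14 ± 0.21 in 5 mice (adjusted p = 0.268) and passed without mouse 5 (0.22, adjusted p = 0.0431). Its light chains Slc7a5 at -0.05 and Slc7a7 at -0.11 had no call (adjusted p = 0.553 and 0.286), and Slc7a8 was the called one given above. Slc38a9, a lysosomal carrier that takes part in sensing arginine, had one of the largest spreads, from -1.09 in mouse 1 to 0.41 in mouse 5 (-0.18 ± 0.56, adjusted p = 0.519). Among carriers of peptides and histidine, Slc15a4, a lysosomal carrier of immune cells, was at -0.43, -0.39, -0.20, -0.29, -0.29 and -0.23, all negative, with a mean of -0.30 ± 0.09 (adjusted p = 0.00552, held without each mouse). The peptide carrier Slc15a2 was at -0.21 ± 0.32 (adjusted p = 0.207), with mouse 3 lowest at -0.71. Macrophage markers had 5 calls among 12 genes, all negative (median -0.29, from -0.69 to 0.14 in single mice), on the side of Slc15a4. Markers of alternatively activated macrophages had 6 calls among 8, all negative (median -1.23, from -1.82 to 0.12). The part of these cells in it was not tested.

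Carriers of choline and vitamins had 3 calls among 11 (27.3%), near the 24.4% of all probes. Slc44a1, a choline carrier of plasma and mitochondrial membranes, was at 0.75, 0.94, 0.45, 0.92, 0.37 and 0.33, 0.63 ± 0.28 (1.54-fold, adjusted p = 0.00709). All mice were positive, with mice 1, 2 and 4 highest. A second probe of Slc44a1, also measured in 6 mice, was at 0.08 ± 0.14 (adjusted p = 0.315), so the probes of this gene disagree in size. Probe order alone decided which was used. Slc46a3, a lysosomal carrier, was at 0.90, 0.83, 0.52, 0.67, 0.24 and 0.51, 0.61 ± 0.24 (1.53-fold, adjusted p = 0.00552). The calls of Slc44a1 and Slc46a3 held without each mouse. Slc5a7, the choline carrier of cholinergic nerves, was at -0.23 ± 0.13 (adjusted p = 0.0211), lost without mouse 2 (0.0675) or mouse 4 (0.0681). Slc44a3 at 0.43 ± 0.55 and the ascorbate carrier Slc23a2 at 0.15 ± 0.50 varied most in this class and had no call (adjusted p = 0.134 and 0.556). Both were highest in mouse 1, at 1.24 and 0.95.

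**Figure D4:**
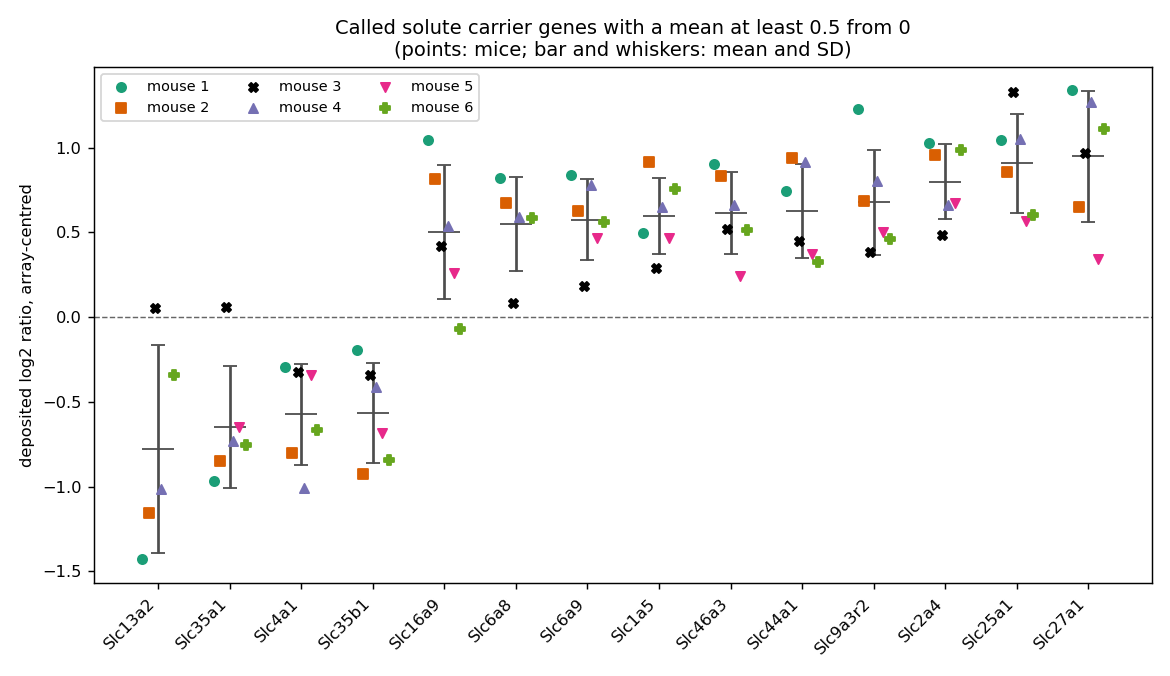
Deposited log2 ratio, array-centred (y axis), of the 14 called solute carrier genes whose mean lies at least 0.5 from 0, ordered by mean; each symbol is a mouse, the horizontal bar the mean and the whiskers the SD. Of the 4 negative genes, Slc13a2 and Slc35a1 cross 0 through mouse 3 alone and Slc4a1 and Slc35b1 lie below 0 in every mouse; in 9 of the 10 positive genes every mouse lies above 0, the other being Slc16a9 with mouse 6 at -0.07.

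Carriers of metals and heme had 4 calls among 17 (23.5%, near the 24.4% of all probes), all small. The zinc and iron carrier Slc39a14 and the zinc carrier Slc39a11 were each at -0.16 (adjusted p = 0.0352 and 0.0455), the copper carrier Slc31a2 also at -0.16 (adjusted p = 0.0448), and the heme carrier Slc48a1 at 0.23 (adjusted p = 0.0408). None of the 4 kept its call without mouse 1, 2, 4 or 6 (adjusted p between 0.073 and 0.123). Slc39a14 kept it without mouse 3 (0.0159), Slc39a11 without mouse 5 (0.0364) and Slc48a1 without mouse 3 (0.0336) or mouse 5 (0.038), while Slc31a2 lost it whichever mouse was left out. The zinc importers of the Slc39 family had 2 calls among 8 and the zinc exporters of the Slc30 family 0 among 5 (limma; 0 of 5 also without any of the mice). The iron exporter Slc40a1 was at -0.20 ± 0.26 (adjusted p = 0.153), with mice 5 and 6 at -0.58 and -0.46 and the others between -0.10 and 0.06. The macrophage carrier of iron and manganese Slc11a1 was at -0.16 ± 0.20 (adjusted p = 0.151), and Slc39a8 at -0.14 ± 0.31 in 5 mice (adjusted p = 0.405).

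Carriers of bicarbonate, chloride, phosphate and sulfate had 3 calls among 14 (21.4%). Slc4a1, the anion exchanger of red cells, was at -0.30, -0.80, -0.33, -1.01, -0.34 and -0.67, -0.57 ± 0.30 (1.49-fold, adjusted p = 0.0105, held without each mouse). All mice were negative, with mice 2, 4 and 6 lowest. Of 8 other erythroid genes tested 2 were called (25%, near the 24.4% of all probes). Both were positive (Epor at 0.37 and Ank1 at 0.20), and the list's median was -0.06. The remaining 6 had negative means without a call, Epb42 lowest at -0.46 ± 0.64 (limma, adjusted p = 0.157). Slc4a3, an anion exchanger of heart and brain, was at 0.36 ± 0.24 (adjusted p = 0.0242), lost without mouse 2 (0.07), mouse 4 (0.0774) or mouse 5 (0.056). Its second probe was also positive and called, at 0.18 ± 0.07 in 5 mice (adjusted p = 0.0327). The sulfate carrier Slc26a2 was at -1.12, -0.78, 0.49, -0.87, -0.57 and -0.26, with mouse 3 alone positive. Its mean of -0.52 ± 0.57 had no call (adjusted p = 0.0909), but without mouse 3 it was -0.72 (adjusted p = 0.00721). Its probe lies 6 numbers from that of Reep2, at -1.76. The iodide carrier Slc5a5 was called at -0.12 (adjusted p = 0.0451) and lost the call without any mouse, and the phosphate carrier Slc20a1 was at -0.07 ± 0.16 (adjusted p = 0.461).

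Among exchangers of sodium, potassium, calcium and protons, Slc8a1, the sodium-calcium exchanger of heart and smooth muscle, was the call, at -0.38, -0.13, -0.20, -0.24, -0.16 and -0.16 with a mean of -0.21 ± 0.09 (adjusted p = 0.0139; 0.0503 without mouse 4). Its sign was opposite to that of the heart muscle list, and the part of that tissue in its value was not tested. Slc9a8, a sodium-proton exchanger of the Golgi, was at 1.23, 0.67, -0.13, 0.67, 0.14 and 0.50, 0.51 ± 0.47 (adjusted p = 0.0557), and passed without mouse 3 (0.65, adjusted p = 0.0194). A second probe of Slc9a8 was at 0.06 in 4 mice. Slc12a2, the sodium-potassium-chloride cotransporter of secretory epithelia, was at 0.05 ± 0.30 in 5 mice (adjusted p = 0.752), with mice 1 and 4 positive and mice 2, 5 and 6 negative. The kidney cotransporter Slc12a1 was at 0.12 ± 0.06, positive in every mouse, and just outside the threshold (adjusted p = 0.0547).

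Carriers of neurotransmitters and osmolytes had 3 calls among 10 (30%, against 24.4% of all probes), all positive. There were 2 without mouse 4 and 1 without mouse 2. Slc6a8, the creatine carrier, was at 0.82, 0.68, 0.08, 0.59 and 0.59 in mice 1, 2, 3, 4 and 6, 0.55 ± 0.28 (1.47-fold, adjusted p = 0.0148, n = 5), and lost its call without mouse 2 (0.056) or mouse 4 (0.055). The vesicular glutamate carrier Slc17a7 was at 0.27 ± 0.08 (adjusted p = 0.00702, held without each mouse) and the polyamine carrier Slc18b1 at 0.25 ± 0.14 (adjusted p = 0.0178; 0.0594 without mouse 2). Slc6a4, the serotonin carrier that lung endothelium uses to clear serotonin from blood, was at -0.03 ± 0.22 (adjusted p = 0.794). Of the 13 carriers of organic cations, anions and drugs the call was Slc22a12, a urate carrier, at 0.21 ± 0.11 (adjusted p = 0.0213), lost without mouse 2, 4 or 6 (0.056 to 0.0676). Of the nucleoside and nucleobase carriers, Slc43a3 was at 0.29 ± 0.34, Slc28a2 at -0.08 ± 0.22 and Slc29a1 at 0.07 ± 0.18, without a call (adjusted p = 0.114, 0.478 and 0.495). The urea carriers Slc14a1 and Slc14a2 were at -0.13 and 0.06 in 5 mice (adjusted p = 0.0843 and 0.47).

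Slc9a3r2 carries a solute carrier name but is a scaffold protein that tethers transporters, abundant in endothelium. It was at 1.23, 0.69, 0.38, 0.81, 0.50 and 0.46, 0.68 ± 0.31 (1.60-fold, adjusted p = 0.00754, held without each mouse). Every mouse was positive, with mouse 1 apart from the rest. Endothelial markers had 8 calls among 15, all positive (median 0.36, from 0.16 to 0.71 in single mice), and their part in this value was not tested. Slc6a19os, an opposite-strand transcript, was at -0.05 (adjusted p = 0.631).

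Genes that work with solute carriers were called on both sides. Of 17 tested subunits of the sodium pump, regulators and partners, 7 were called (41.2%, against 24.4% of all probes tested), 3 negative and 4 positive. Fxyd1, a pump regulator of heart and muscle, was at 0.78 ± 0.30 (adjusted p = 0.00546), Cltrn, which assists amino acid carriers at the cell surface, at 0.38, Fxyd3 at 0.30 in 4 mice and Bsg, the partner of lactate carriers, at 0.24. Unc93b1 was at -0.76, Fxyd4 at -0.51 and Fxyd6 at -0.21. The count was 4 without mouse 2, 2 without mouse 4 and 4 without mouse 6. The same omissions lowered the share of all probes called to 11.8%, 11.5% and 14.8%. The pump subunits Atp1b1 at 0.17 and Atp1b3 at -0.12 had no call (adjusted p = 0.434 and 0.1). Organic anion carriers of the Slco family had 3 calls among 9 (33.3%, against 24.4% of all probes), all positive. They were Slco3a1 at 0.53, the prostaglandin carrier Slco2a1 at 0.35 and Slco1a4 at 0.29, and the count was 3 without each mouse.

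Of the 13 solute carrier genes with a second tested probe, 10 had both probes on the same side. In 1, Slc4a3, both were called. In 4 only 1 was: Slc44a1 as above, Slc25a24 with -0.33 against -0.14, Slc25a26 with 0.23 against 0.06, and Slc38a4, where the second probe was called (0.16, adjusted p = 0.0475) and the first was not (0.18, adjusted p = 0.314). No gene had called probes on opposite sides.

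Mouse 3 gave the smallest ratios for many of the called genes. Over all probes it also had the smallest SD of the log ratio (0.21). Over the 49 called genes the median distance from 0 was 0.20 in mouse 3, 0.24 in mouse 5 and between 0.33 and 0.42 in mice 1, 2, 4 and 6. Of the 44 called genes measured on all arrays, mouse 3 was nearest to 0 in 19 and mouse 5 in 10. The sign of the single value was that of the mean in 43 of 49 genes in mouse 3, 43 of 45 in mouse 5, and all measured genes in mice 1 and 4. A call asks for values that agree, and each mouse enters the mean, so such agreement follows from the selection. No matching counts were taken over all probes, so these are not read as a trait of the called genes.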

How the data were processed

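Per the labels, each of 6 arrays set amplified lung RNA of an ovalbumin mouse against a pool from control mice. The authors deposited 1 table of log ratios, read here as log2 ratios; the sources used here give no scanner, normalization, base, dyes or direction. Of 17280 probes, 170 rows of 10 sequences repeated 17 times and 4 plant control rows were left out. Each array was centred on its median. For each probe with values on at least 4 arrays, lmFit and eBayes of limma 3.58.1 (R 4.3.3) gave a two-sided test that its mean is 0, with Benjamini-Hochberg adjustment over all 11629 probes. On simulated data 77.5% of probes changed 1.5-fold and 96.5% of those changed 2-fold were recovered (200 changed of 11629). No depth exists for arrays; their number, 6, limits the precision.

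Genes carry the symbols of the platform annotation. The genes, classes and marker lists were chosen with earlier results of these data known. The rule for named genes took every call with a mean at least 0.5 from 0, up to 4 calls of each class with the largest distance from 0 (or up to 2 genes where none was called), the 8 genes with the largest SD, a list of known transporters, and the genes nearest to the threshold. Outside that rule, 20 genes are named that were chosen after their values were seen: Slc1a2, Slc2a5, Slc6a19os, Slc25a3, Slc25a14, Slc25a22, Slc25a23, Slc25a24, Slc25a26, Slc25a28, Slc25a30, Slc25a32, Slc27a2, Slc27a4, Slc27a5, Slc35a2, Slc35a4, Slc35b2, Slc37a4 and Slc38a4. After values were seen, Slc6a19os was moved to the genes that are not transporters, and Slc35a3 and Slc33a1 were added to the promoters examined; 8 motifs were searched. The alternatives were no centring, quantile normalization, equal scale between arrays, array weights, robust eBayes, the mean over a gene's probes, values on all 6 or at least 3 arrays, an adjusted p of 0.01, leaving out probes beside a stronger one, and each mouse left out.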

Additional observations from a re-analysis of the deposited data

Results flagged for a closer look

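In 3 of 64 named solute carrier genes a mouse lay far from the others by Dixon's criterion. Slc25a10 was at 0.212 in mouse 5, with the nearest other mouse at 0.435. Slc35a1 was at 0.058 in mouse 3, with the nearest other mouse at -0.65. Slc2a3 was at -0.071 in mouse 6, with the nearest of the other mice at 0.072 (n = 5). Over all 188 genes 10 had such a mouse (5.32%), and chance alone gives about 1 in 20. The mouse was mouse 3 in 4 of the 10 and mouse 6 in 3.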

How the results depend on the processing

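Over the alternatives, the named genes kept their direction and their side of the threshold in 891 comparisons, lost the call in 98, gained it in 13 and changed sign in 11. The sign changed for 6 genes that were called in neither setting. Slc16a3 was at 0.0033 with arrays of equal scale, 0.020 with quantile normalization and 0.038 with array weights, and ran from -0.151 to 0.16 with each mouse left out. The same omissions gave -0.298 to 0.0019 for Slc38a9, -0.0125 to 0.289 for Slc23a2, -0.0489 to 0.0138 for Slc25a20, -0.0528 to 0.12 for Slc12a2 and -0.108 to 0.0186 for Slc6a4. At an adjusted p below 0.01 there were 14 calls, 3 negative and 11 positive, and no share of all probes was taken at that threshold. Keeping only genes with values on all 6 arrays gave class medians of 0.141 for monocarboxylates and dicarboxylates and 0.17 for sugars and polyols. Leaving out each mouse in turn gave 23 to 52 calls, 9 to 22 negative and 14 to 30 positive, a median of 0.052 to 0.101 for sugar carriers, and 2 to 8 calls among pump subunits and partners. Probes beside a stronger one were defined after values were seen. No paired analysis was possible because there is 1 group of mice. Without values of single control mice, the spread of the pool is not measured.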

Other observations

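The genes most like Slc35a1 over the 6 mice, among 7502 genes compared, were Csf2rb2 (Pearson r = 0.994), Plac8 (0.994) and Mcm7 (0.988). Those most like Slc27a1 were Asb9 (0.987), Palm (0.976) and Zfp30 (0.969). Their means were -0.10, -0.07 and 0.14, none with a call (limma, adjusted p = 0.103, 0.435 and 0.121), against 0.949 for Slc27a1. The genes most like Slc35a1 were all called and negative, at -0.89, -1.87 and -0.54. A high r is easily reached by the best of 7502 genes over 6 points. The 6 points share the arrays and the control pool, so these are descriptions.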
